A study of Homo sapiens with 6 samples.

Results

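The distal long arm of human chromosome 19 carries one of the densest runs of zinc finger genes in the genome, and their RNA levels were compared between a paclitaxel-resistant breast cancer line and its parent. The genes are the protein-coding genes of the count table whose symbol begins with ZNF, ZSCAN, ZFP or ZIM and whose start lies above base 50000000 of chromosome 19 (GRCh38). The table holds 109 of them among 28395 genes, comprising 100 ZNF, 6 ZSCAN, 2 ZIM and 1 ZFP gene. They span chr19:50026005-58489533, from ZNF473 to the gene nearest the telomere. The list was chosen by its values in the comparison reported here, because many of these genes had lower counts in the resistant line in an earlier look at the same libraries. Their resistant against control values are therefore a description, and no test is drawn from them.

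The resistant group is MDA-MB-468-PR, which was made in-house by growing MDA-MB-468 over 2 months with the microtubule-stabilising drug paclitaxel at 3 to 4.5 nM. The control group is the parental MDA-MB-468, a line from a triple-negative breast cancer. Each group has 3 libraries, all labelled untreated, and all cells grew in DMEM with serum. Replicate 1 of each group belongs to a batch of 2020 and replicates 2 and 3 to a batch of 2021. The resistant line is a single derivative, and nothing in the labels states that replicates came from separate cultures. The p-values therefore cover only library-to-library variation, some of which may be technical. In bulk RNA, fewer cells expressing a gene and less RNA per cell cannot be told apart.

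Most proteins of this kind contain a row of C2H2 zinc fingers, each of which contacts a short stretch of DNA, so that each protein reads its own sequence. Many also carry a KRAB domain, which binds the corepressor TRIM28. TRIM28 in turn brings the histone methyltransferase SETDB1 and heterochromatin proteins, and the complex silences transposable elements and other targets. SCAN domains, found in the ZSCAN proteins, let these proteins pair with each other. The genes multiplied by tandem duplication in primates and other mammals, so that neighbours are often near copies. The promoters of several of them are methylated in carcinomas.

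Promoter sequences are shown for 3 genes with some of the largest differences between the lines (ZSCAN4, ZNF772 and ZNF582) and for ZNF671, a gene at the detection floor whose promoter methylation is studied in carcinomas. Each sequence runs from 250 bases before to 50 bases after the annotated start, is written 5′ to 3′ on the gene's own strand with CpG sites in capitals, and comes from RefSeq, build GRCh38.p14. The regions are chr19:57668685-57668984 (plus strand) for ZSCAN4, chr19:57477517-57477816 (minus strand) for ZNF772, chr19:56393485-56393784 (minus strand) for ZNF582 and chr19:57727575-57727874 (minus strand) for ZNF671.
ZSCAN4: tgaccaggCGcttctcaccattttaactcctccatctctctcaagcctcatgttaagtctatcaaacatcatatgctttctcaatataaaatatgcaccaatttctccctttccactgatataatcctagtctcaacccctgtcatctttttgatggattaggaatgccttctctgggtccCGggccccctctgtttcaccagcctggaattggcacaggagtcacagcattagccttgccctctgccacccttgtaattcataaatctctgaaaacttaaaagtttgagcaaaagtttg
ZNF772: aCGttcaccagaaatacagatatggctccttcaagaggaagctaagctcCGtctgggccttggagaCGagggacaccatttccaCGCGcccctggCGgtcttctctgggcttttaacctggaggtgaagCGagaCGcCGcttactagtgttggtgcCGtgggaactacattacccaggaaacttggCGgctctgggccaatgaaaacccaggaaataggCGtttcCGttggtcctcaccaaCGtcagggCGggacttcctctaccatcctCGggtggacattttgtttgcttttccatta
ZNF582: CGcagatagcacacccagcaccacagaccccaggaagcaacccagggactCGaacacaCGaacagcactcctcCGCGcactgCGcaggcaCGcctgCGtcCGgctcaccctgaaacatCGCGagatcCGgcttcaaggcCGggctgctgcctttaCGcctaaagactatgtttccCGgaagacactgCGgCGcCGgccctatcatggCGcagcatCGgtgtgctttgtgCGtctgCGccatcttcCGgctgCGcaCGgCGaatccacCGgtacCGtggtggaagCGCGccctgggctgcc
ZNF671: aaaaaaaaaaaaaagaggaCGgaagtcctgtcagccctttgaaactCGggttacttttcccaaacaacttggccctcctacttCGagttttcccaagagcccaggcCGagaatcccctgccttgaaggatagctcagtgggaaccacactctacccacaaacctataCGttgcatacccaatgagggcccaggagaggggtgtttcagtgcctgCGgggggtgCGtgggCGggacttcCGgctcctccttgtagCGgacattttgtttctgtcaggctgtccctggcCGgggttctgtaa

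These windows differ in CpG content. The ZSCAN4 window holds 2 CpG sites, and 94.1% of the 15843 protein-coding promoters in the table hold at least as many. The ZNF582 window holds 30, a number reached by 30.1% of promoters. ZNF772 has 16 CpG sites and ZNF671 has 11. The table's start for ZSCAN4 lies inside the gene's annotated interval. A promoter was found for 93 of the 109 genes, with a median of 24 CpG sites, against 22 in the 371 other zinc finger promoters and 22 over all protein-coding promoters. The ETS core CCGGAAGT, searched on both strands, occurred in 33.3% of the 93 promoters, against 13.5% of the other zinc finger promoters and 6.19% of all protein-coding promoters. ZNF671 is one of the genes with that match. The motif TATAAA, also searched on both strands, occurred in 2.15% of the 93 promoters and in 9.63% of all, and ZSCAN4 is one of its matches. Another 4 motifs were searched in the same way and were rare in the 93 promoters. NRF1 and ZNF143 motifs occurred in 1.08% each, against 1.75% and 0.372% of all promoters, and the YY1 motif and the CRE motif TGACGTCA in 2.15% each, against 1.37% and 2.59%. These matches describe letters in a window and were not tested as binding sites.

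Total counts per library were 37889818 to 93680129 in the resistant line and 41343499 to 66475627 in the control line. Reads of the 109 genes took 0.250% to 0.268% of the counts in resistant libraries and 0.241% to 0.309% in control libraries. A count of 3 in a library corresponds to between 0.0320 and 0.0792 CPM, the count scaled to the size of the library, and such floors cover counting error only. All CPM values given here are scaled by TMM, which evens out library composition. The epithelial and basal genes EGFR, KRT5, KRT17, EPCAM and CDH3 were expressed in all 6 libraries. SOX10, a marker of some basal tumours, reached at most 0.0295 CPM in any library. PGR had no count, while ESR1 had 0.955 to 2.32 CPM in resistant and 0.738 to 4.55 CPM in control libraries. Of the markers of other cell types, PTPRC and CD3E (leukocytes) and PDGFRB and DCN (fibroblasts) stayed at or below 0.165 CPM. COL1A1, a fibroblast gene, had 22.4 to 26.0 CPM in resistant and 23.1 to 30.3 CPM in control libraries, and CD14, a myeloid gene, had 9.19 to 15.9 and 6.51 to 18.7 CPM. The endothelial genes VWF and PECAM1 stayed at or below 1.84 and 0.769 CPM. The part of such genes in the results was not tested.

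Of the 109 genes, 101 passed the filter on low counts and 8 did not. The 8 were ZIM2, ZIM3, ZNF132, ZNF154, ZNF534, ZNF671, ZSCAN5B and the readthrough gene ZNF816-ZNF321P, each with 0 to 5 counts in every library. ZIM3, whose KRAB domain is a strong repressor used in engineered silencers, had no count at all. ZIM2, an imprinted gene that shares exons with PEG3, had 1 count in resistant replicate 3 and none elsewhere. ZNF671 had 0, 2 and 3 counts in the resistant libraries and 1, 0 and 5 in the control libraries. ZNF534, a repressor of an endogenous retrovirus family, had 0, 2 and 1 counts in resistant and 0, 1 and 1 in control libraries. No difference was detectable at this depth for these 8 genes.

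The 101 measured genes were expressed at low to moderate levels. Their mean over the 6 libraries ran between 1.56 and 115 CPM, with a median of 23.6 CPM. In 81 of them the mean was at least 10 CPM, and in 10 it was at least 50 CPM. Per kilobase of exon, ZNF460 had the highest level, with 26.9 CPM per kb in the resistant and 27.1 CPM per kb in the control line. ZNF808, a KRAB gene needed for human pancreas development, followed with 15.8 and 15.9 CPM per kb in the resistant and control line. It shares 14.8% of its exonic 75-base words with other genes, so part of its reads may belong elsewhere. ZNF83 had 14.7 CPM per kb in the resistant and 13.8 in the control line, and ZNF544 had 13.3 and 14.8. The differences of these 4 genes between the lines lay within the spread of the libraries, apart from ZNF544, whose 3 resistant libraries were all below its 3 control libraries. The RNA was captured with exome probes, and capture may differ between genes, so the ranking by level per kilobase is uncertain.

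Along the chromosome the genes fall on both sides of a stretch of 1973382 bases in which no member begins, between the starts of ZNF331 and ZNF628. The 39 measured genes on the centromeric side and the 62 on the telomeric side are described as 2 blocks, and this split was chosen after the values were seen. In the telomeric block 61 of 62 genes had a fitted log2 difference (resistant minus control) below 0, with a median of -0.33, quartiles of -0.51 and -0.23, and 14 genes called lower. In the centromeric block 26 of 39 were below 0, with a median of -0.07 and 1 gene called lower. No gene in either block was called higher, and none was higher at an unadjusted p under 0.05 in the same edgeR fit, nor called higher by DESeq2 or limma voom. A call means a Benjamini-Hochberg adjusted p under 0.05 over 13950 genes in edgeR's quasi-likelihood test. Over all these genes 11.7% were called, 6.23% as higher and 5.48% as lower, and their median difference was -0.00391. The 15 genes called are given against that background as a description, since the genes were picked on this contrast.

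**Figure D1:**
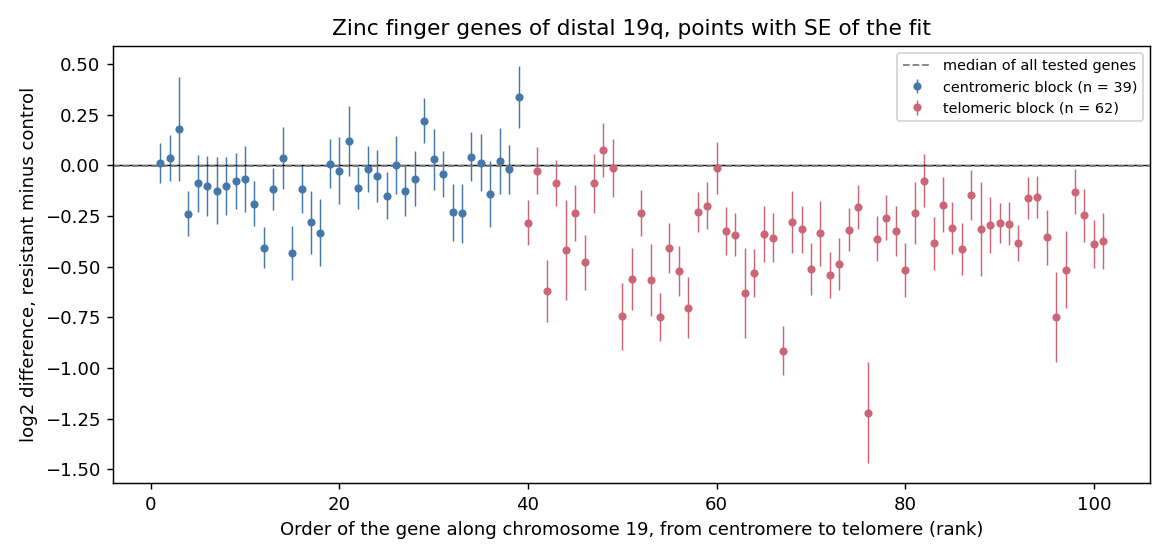
Fitted log2 difference, resistant minus control, on the vertical axis for the 101 measured zinc finger genes in their order along chromosome 19 on the horizontal axis. Points are single genes, bars are the standard error of the fit, and the dashed line is the median of all tested genes. Of the 62 telomeric points, 61 lie below 0, while the 39 centromeric points lie on both sides of it.

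Both batches gave the same sign for most genes. The telomeric median was -0.29 in the 2020 pair and -0.34 in the 2021 libraries, and 55 of its 62 genes were below 0 in both. The centromeric median was -0.11 in 2020 and -0.03 in 2021. By megabase, the median difference was -0.09 at 51, -0.10 at 52 and 0.01 at 53, then -0.28 at 55, -0.52 at 56, -0.33 at 57 and -0.30 at 58. The lowest median was therefore at megabase 56, where 5 of 11 genes were called lower, against 5.48% of all tested genes. Across all 101 genes, 25 had every resistant library below every control library and 0 had the reverse, and over all tested genes these shares were 10.2% and 10.7%.

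Summed over the 62 telomeric genes, levels were 1217, 1268 and 1433 CPM in the resistant libraries and 1444, 1578 and 1730 CPM in the control libraries. The highest resistant sum lay just under the lowest control sum, and the lowest value of each line was its 2020 library. Summed over the 39 centromeric genes, levels were 1335, 1097 and 1171 CPM in resistant and 1411, 973 and 1302 CPM in control libraries. Here the groups overlapped, and control replicate 2 was the lowest of all 6. Without control replicate 2 the centromeric median was -0.19, and without control replicate 3 it was 0.06, so its sign depends on single libraries. The telomeric median stayed between -0.39 and -0.29 when each library was left out in turn.

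**Figure D2:**
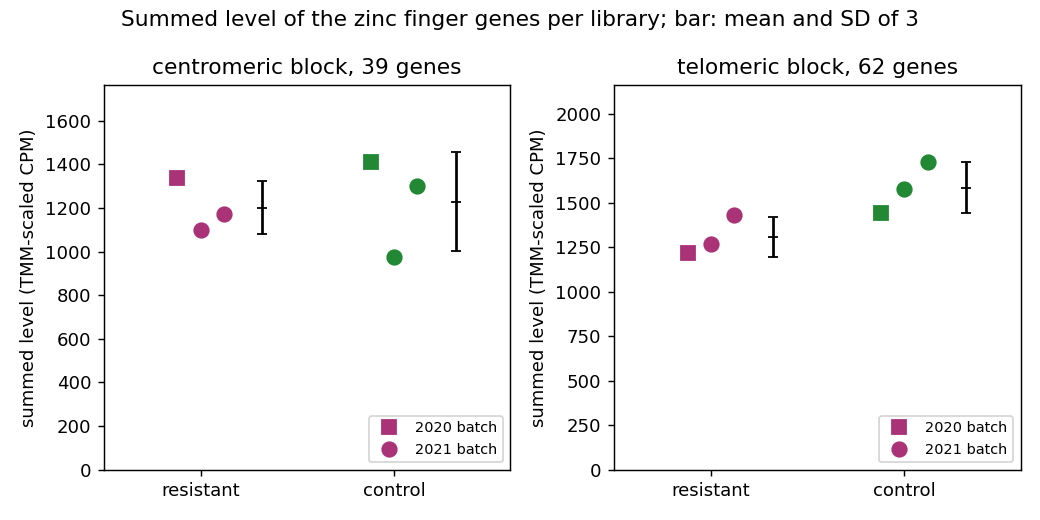
Summed TMM-scaled CPM (vertical axis) of the 39 centromeric genes (left panel) and the 62 telomeric genes (right panel) in each library of the resistant and control line. Squares are 2020 libraries, circles are 2021 libraries, and the bar is the mean with the SD of 3 libraries. The telomeric sums of the lines do not overlap (at most 1433 against at least 1444), and the centromeric sums do.

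Zinc finger genes outside the window had pooled medians near 0 that differed in sign between batches. The 256 measured on other chromosomes had a median of 0.04 (-0.10 in 2020 and 0.12 in 2021), with 114 below 0, 11 called higher and 12 called lower. Some of them lay under the telomeric median, such as ZNF322 at -0.59, ZNF391 at -0.63, ZNF184 at -0.55 and ZNF81 at -0.66. Others were ZNF165 at -0.51, ZSCAN16 at -0.59, ZNF674 at -0.63 and ZNF630 at -0.58. These were picked after the values were seen, and 142 of the 256 were above 0. Whether such genes lie next to each other on their chromosomes was not examined. The 137 measured elsewhere on chromosome 19 had a median of -0.03 (-0.18 in 2020 and 0.07 in 2021), with 76 below 0, 1 called higher and 5 called lower. Some of these genes differed more than any member. ZNF728, at chr19:22974883-23003176, had 0.189, 0.105 and 0.114 CPM in resistant and 1.86, 1.22 and 1.14 CPM in control libraries, and it fell by 3.36 ± 0.30 on the log2 scale (SE, adjusted p = 0.000941, edgeR). Its neighbour ZNF99, also called lower, had 0, 0.0450 and 0 CPM in resistant and 0.745, 0.393 and 0.428 CPM in control libraries, and ZNF492 and ZNF98 nearby were at -2.26 ± 0.65 and -1.54 ± 1.01 without a call. Neighbouring zinc finger genes with lower values thus also occurred outside distal 19q. The protein-coding genes of the telomeric block that do not belong to the list had a median of -0.33 as well, with 17 of 22 below 0 and 3 called, all lower (ZIK1, TRAPPC2B and CHMP2A). Their median was -0.15 in 2020 and -0.39 in 2021. They include zinc finger genes under other symbols, such as ZIK1, PEG3 and MZF1. TRAPPC2B has the same annotated start as the member ZNF547, so the reads of these genes may be mixed. The other genes of the centromeric block had a median of -0.04 over 20, and those in the stretch between the blocks -0.16 over 22. The differences between these lists were not tested.

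**Figure D3:**
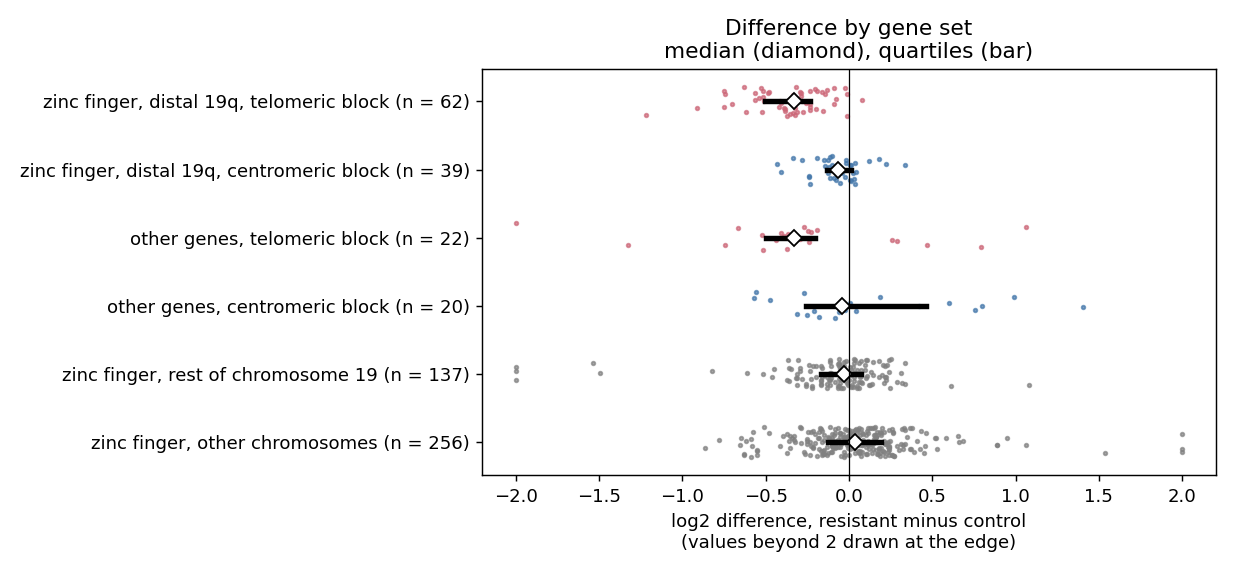
Fitted log2 difference, resistant minus control (horizontal axis), for 6 lists of genes, one per row. Each dot is a gene, the diamond is the median and the bar spans the quartiles, and values beyond 2 in size are drawn at the edge. The zinc finger genes and the other genes of the telomeric block share a median of -0.33, while the other 4 lists have medians between -0.07 and 0.04.

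The largest difference belonged to ZSCAN4, a SCAN-domain gene known from the early mouse embryo, where it acts on telomere length. ZSCAN4 had 0.996, 0.975 and 1.20 CPM in the resistant libraries and 2.26, 2.06 and 3.10 CPM in the control libraries. Every resistant library lay below every control library, with a log2 difference of -1.22 ± 0.25 (SE of the fit). ZNF772, a KRAB gene, had 4.20, 8.22 and 7.59 CPM in resistant and 7.48, 15.2 and 15.4 CPM in control libraries. The resistant value was lower within each batch, although the 2020 control lay within the resistant range, and the log2 difference was -0.91 ± 0.12. ZNF497 had 0.754, 1.43 and 1.37 CPM in resistant and 1.37, 2.06 and 2.51 CPM in control libraries. Its groups overlapped only through the 2020 control, its log2 difference was -0.75 ± 0.22, and it was not called.

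Part of the same region is ZFP28, a KRAB gene conserved in the mouse. ZFP28 had 17.8, 12.7 and 13.2 CPM in resistant and 25.7, 21.9 and 24.9 CPM in control libraries, without overlap, and a log2 difference of -0.75 ± 0.12. ZNF582, a gene whose methylated promoter is used as a marker in cervical screening, had 3.42, 2.75 and 2.88 CPM in resistant and 5.59, 4.45 and 5.09 CPM in control libraries. These did not overlap either, and the log2 difference was -0.75 ± 0.17. ZNF835 had 5.57, 7.46 and 8.07 CPM in resistant and 7.03, 15.1 and 13.3 CPM in control libraries, with a log2 difference of -0.70 ± 0.15. Both 2021 controls stood above all other libraries, and the 2020 control lay inside the resistant range. ZNF547 had 1.59, 3.57 and 3.17 CPM in resistant and 2.78, 3.81 and 6.06 CPM in control libraries, with a log2 difference of -0.63 ± 0.22 and no call. ZNF547 has the same annotated start as TRAPPC2B, and the strand setting of the counting is not given in the sources used here, so the reads of the pair may have been split between them.

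**Figure D4:**
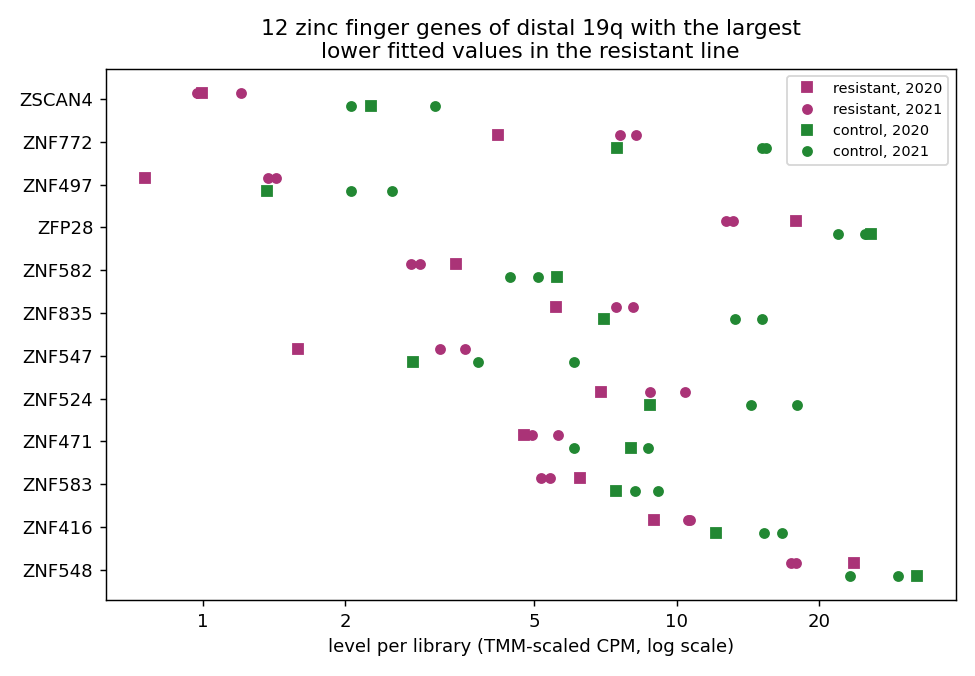
Level per library (TMM-scaled CPM, log scale, horizontal axis) of the 12 zinc finger genes with the lowest fitted differences among those lower in both batches. Purple marks are resistant and green marks control libraries, squares are from 2020 and circles from 2021. In ZSCAN4, ZFP28, ZNF582, ZNF471, ZNF583 and ZNF416 all 3 resistant marks lie left of all 3 control marks, and in the other 6 the lines overlap.

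ZNF524, whose product binds telomeric repeats, had 6.92, 8.78 and 10.4 CPM in resistant and 8.77, 17.9 and 14.3 CPM in control libraries. The 2020 control reached only the level of the resistant libraries, and the log2 difference was -0.62 ± 0.15. ZNF471 had 4.77, 4.95 and 5.62 CPM in resistant and 8.0, 6.06 and 8.69 CPM in control libraries. Its groups did not overlap, with a log2 difference of -0.57 ± 0.18, though it was not called. ZNF583 had 6.25, 5.16 and 5.40 CPM in resistant and 7.43, 8.17 and 9.12 CPM in control libraries, with a log2 difference of -0.56 ± 0.15 and no overlap. ZNF524, ZNF583 and ZNF836 were no longer called with the replicate number as a block. ZNF416 had 8.94, 10.5 and 10.7 CPM in resistant and 12.1, 15.3 and 16.7 CPM in control libraries, again without overlap, at -0.54 ± 0.11. ZNF548 had 23.6, 17.4 and 17.9 CPM in resistant and 32.1, 23.2 and 29.3 CPM in control libraries. The lines overlapped only in that the 2020 resistant library exceeded control replicate 2, and the log2 difference was -0.53 ± 0.12.

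The other 6 genes among the 15 called were ZNF836, ZNF71, ZNF549, ZNF530, ZNF552 and ZNF274, with log2 differences of -0.52 to -0.38. ZNF274, a KRAB and SCAN protein that binds the ends of other zinc finger genes and recruits SETDB1 there, had 54.4, 47.9 and 48.3 CPM in resistant and 65.0, 63.4 and 67.5 CPM in control libraries. The groups stood apart by more than the range within either, and the log2 difference was -0.38 ± 0.09. ZNF836 was the one centromeric gene called, with 21.9, 20.9 and 21.5 CPM in resistant and 29.6, 26.1 and 29.7 CPM in control libraries. Its groups did not overlap, and its product has 24 matches to the C2H2 finger pattern. ZNF552 shares 10.7% of its exonic 75-base words with other genes, so part of its reads may belong elsewhere.

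From ZNF582 to ZNF835, 8 members in succession (chr19:56382751-56671757) had differences between -0.75 and -0.24, with a median of -0.56. In order they are ZNF582, ZNF583, ZNF667, ZNF471, ZFP28, ZNF470, ZNF71 and ZNF835. Of these, 5 were called lower and 7 had all resistant below all control libraries. The shares over all tested genes were 5.48% and 10.2%. On the centromeric side of the run lie ZNF787 at -0.09, ZNF444 at 0.08 and ZSCAN5A at -0.01. This run was picked after the values were seen.

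Genes studied for promoter methylation in carcinomas were not uniform. ZNF667, inside that run, had 14.7, 12.4 and 14.6 CPM in resistant and 17.1, 15.7 and 16.2 CPM in control libraries, without overlap, at -0.24 ± 0.11 and not called. ZNF677 had 6.25, 6.45 and 6.86 CPM in resistant and 8.75, 6.69 and 7.77 CPM in control libraries, with overlap, at -0.24 ± 0.15. ZNF577, on the centromeric side, had 10.3, 12.3 and 10.9 CPM in resistant and 10.5, 6.13 and 13.0 CPM in control libraries. Its resistant libraries all lay within the control range, and the fit gave 0.18 ± 0.26.

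Among genes with reported targets, ZNF304, a KRAB protein that recruits corepressors to a tumour suppressor locus in colorectal cancer cells, had 17.0, 22.6 and 25.6 CPM in resistant and 21.5, 28.7 and 32.5 CPM in control libraries. The resistant value was lower in each batch but the groups overlapped, and the log2 difference of -0.34 ± 0.11 was not called. ZNF417 and ZNF587 are a near-identical pair that represses endogenous retroviruses. ZNF587 had 41.6, 38.8 and 45.8 CPM in resistant and 47, 37.0 and 49.2 CPM in control libraries, at -0.08 ± 0.13. ZNF417 had 24.0, 31.0 and 35.2 CPM in resistant and 31.1, 30.5 and 40.8 CPM in control libraries, at -0.19 ± 0.13. Both overlapped between the lines. Words of 75 bases shared with another gene made up 23.3% of ZNF417 and 14.9% of ZNF587, and each was the other's main partner, so reads may have been lost or split between them.

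Higher fitted values were few, small and not called. ZNF331, an imprinted KRAB gene at the telomeric end of the centromeric block, had 42.6, 20.3 and 22.2 CPM in resistant and 27.1, 15.7 and 21.6 CPM in control libraries. The 2020 libraries of both lines were the highest, the groups overlapped, and the difference was 0.34 ± 0.15. ZNF160 had 56.6, 47.6 and 51.8 CPM in resistant and 51.9, 36.9 and 45.7 CPM in control libraries, at 0.22 ± 0.11. ZNF444 at 0.08 ± 0.13 and ZNF525 at 0.01 ± 0.14 were the other genes above 0 with the same sign in both batches. The most abundant genes in CPM gave 0.12 ± 0.17 for ZNF83, -0.16 ± 0.10 for ZNF544, -0.01 ± 0.13 for ZNF460, 0.01 ± 0.12 for ZNF808 and -0.05 ± 0.13 for ZNF28. Of these 5, ZNF544 and ZNF460 lie in the telomeric block. ZNF544 had 102, 83.2 and 99.5 CPM in resistant and 106, 105 and 107 CPM in control libraries, so its 3 controls were tightly grouped above the resistant libraries.

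The genes without the listed symbols in the same window include some of the cell's abundant transcripts. TRIM28, the corepressor that KRAB proteins recruit, lies at chr19:58544064-58550715 beyond the last member. TRIM28 had 579, 689 and 811 CPM in resistant and 609, 1147 and 838 CPM in control libraries, with overlap and a log2 difference of -0.29 ± 0.16 (adjusted p = 0.281, edgeR). The ribosomal protein gene RPL28 averaged 557 ± 27.7 CPM in resistant and 677 ± 153 CPM in control libraries (SD, n = 3 each), and the splicing factor gene U2AF2 averaged 311 ± 49.7 and 370 ± 89.1 CPM in the resistant and control line. None of these was called. ZIK1, a KRAB zinc finger gene between ZNF416 and ZNF530, had 3.74, 4.26 and 3.78 CPM in resistant and 8.32, 9.22 and 12.1 CPM in control libraries. ZIK1 fell by 1.33 on the log2 scale (SE 0.16, adjusted p = 0.00242, edgeR), a larger difference than that of any member. PTPRH, a receptor tyrosine phosphatase gene in the stretch between the blocks, had 1.72, 1.43 and 0.893 CPM in resistant and 0.522, 0.375 and 0.251 CPM in control libraries. PTPRH rose by 1.83 ± 0.32 on the log2 scale (SE, adjusted p = 0.00836, edgeR).

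Of 37 genes for KRAB corepressors and related chromatin factors, 36 were tested, 2 fell and 0 rose (1 higher at an unadjusted p under 0.05 in edgeR, and 0 called higher by DESeq2 or limma voom). The 2 make up 5.56% of the 36, close to the 5.48% called lower over all genes, so the count is no result about the list. The median difference of the 36 was 0.00295. SUV39H1, a methyltransferase for histone H3 lysine 9, had 10.4, 11.8 and 13.4 CPM in resistant and 22.1, 34.8 and 25.4 CPM in control libraries. SUV39H1 fell by 1.20 ± 0.14 on the log2 scale (SE, adjusted p = 0.00224, edgeR). RBBP7, a histone-binding subunit of deacetylase complexes, had 283, 194 and 206 CPM in resistant and 493, 403 and 373 CPM in control libraries, and it fell by 0.90 ± 0.11 (SE, adjusted p = 0.00224, edgeR). In both, every resistant library lay below every control library. Both lie on the X chromosome (SUV39H1 at chrX:48695554-48709016, RBBP7 at chrX:16844341-16870362), as does ATRX at 0.13. Whether position bears on their values was not tested. SETDB1 averaged 125 CPM in the resistant and 128 CPM in the control line, with a difference of -0.04 (adjusted p = 0.844, edgeR).

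The batch comparison was not used to pick the genes and can be tested for each. Between 2021 and 2020, 26 of the 101 genes changed, 20 higher and 6 lower in 2021, where 22.9% of all tested genes were called, 11.5% as higher and 11.4% as lower. In the telomeric block 18 of 62 changed, all of them higher in 2021, with a median of 0.22. In the centromeric block 2 of 39 were higher and 6 lower, with a median of -0.23. The 2020 batch has 1 library of each line, so these counts rest on few libraries. Without resistant replicate 1 there were 2 calls, and without control replicate 1 there was 1. Without resistant replicates 2 and 3 there were 11 and 4 calls, and without control replicates 2 and 3 there were 38 and 39. The other protein-coding genes had batch medians of 0.30 in the telomeric and 0.36 in the centromeric block. Zinc finger genes had a batch median of 0.10 on other chromosomes and -0.10 elsewhere on chromosome 19.

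**Figure D5:**
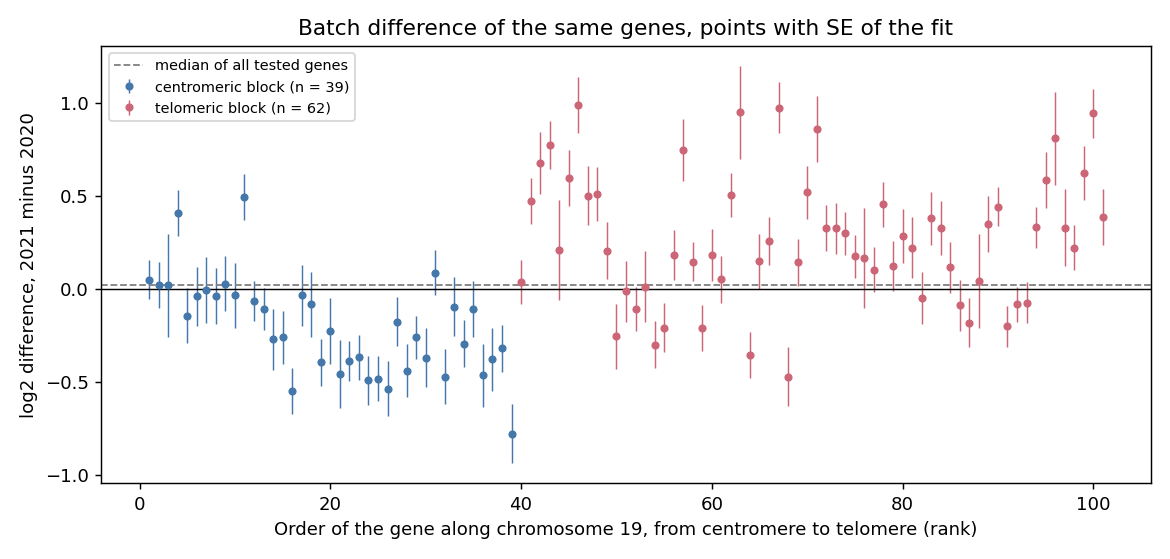
Fitted log2 difference, 2021 minus 2020 libraries, on the vertical axis for the same 101 genes in their order along chromosome 19. Points are single genes and bars the standard error of the fit. Most telomeric points lie above 0 (median 0.22) and most centromeric points below it (median -0.23).

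ZNF580 had 11.6 and 12.8 CPM in the 2021 and 7.24 CPM in the 2020 library of the resistant line, and 19.2 and 18.5 CPM in the 2021 and 8.03 CPM in the 2020 library of the control line. It was higher in 2021 in both lines, by 0.99 ± 0.15 on the log2 scale (SE, adjusted p = 0.00521, edgeR). ZNF580 and its neighbour ZNF581 share 75-base words and overlap in position, so their reads may be mixed. ZNF772, one of the genes lowest in the resistant line, was higher in 2021 by 0.97 ± 0.13 (adjusted p = 0.00365, edgeR), and ZNF547 by 0.95 ± 0.25 (adjusted p = 0.0290, edgeR). In the other direction, ZNF331 had 20.3 and 22.2 CPM in the 2021 and 42.6 CPM in the 2020 library of the resistant line, and 15.7 and 21.6 CPM against 27.1 CPM in the control line. It was lower in 2021, at -0.78 ± 0.16 (adjusted p = 0.0133, edgeR). ZNF880 was at -0.55 ± 0.12 (adjusted p = 0.0171, edgeR) and ZNF320 at -0.54 ± 0.15 (adjusted p = 0.0349, edgeR). ZNF320 shares 85.1% of its 75-base words with other genes, so its value is uncertain.

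The genes were chosen by zinc finger symbols, so C2H2 fingers in the encoded proteins follow from that choice. A pattern for the KRAB domain was found in 76 of the 109 (69.7%), in 99 of 150 zinc finger genes elsewhere on chromosome 19 (66.0%) and in 77 of 296 on other chromosomes (26.1%). The centromeric block had it in 39 of 41 genes and the telomeric block in 37 of 68. The pattern is strict and can miss diverged domains, so a gene without a match may still encode one. Within the telomeric block the 33 measured genes with the pattern had a median difference of -0.32 with 10 called lower. The 29 without it had -0.34 with 4 called lower. Over all tested genes 5.48% were called lower. The C2H2 finger pattern was matched a median of 12 times per protein, with a range of 0 to 26, against 12 elsewhere on chromosome 19 and 8 on other chromosomes. Members with 2 to 10 fingers had a median difference of -0.28, those with 11 to 13 had -0.20 and those with 14 to 26 had -0.23. Genes in the lowest tercile of levels, at 1.56 to 15.1 CPM, had a median of -0.38, against -0.19 in the middle and -0.13 in the highest tercile. Since the blocks differ in level and exon length, these medians are not independent of position. No exonic 75-base word was shared with another gene in 56 of the 109, and at least 10% of the words were shared in 12.

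At the edge of the window, ZNF473 is the first gene inside, with 45.7, 43.8 and 46.4 CPM in resistant and 42.5, 43.4 and 48.9 CPM in control libraries and a difference of 0.01. ZNF114, the measured zinc finger gene just outside, had 1.29, 1.59 and 1.94 CPM in resistant and 0.522, 0.751 and 1.02 CPM in control libraries and a difference of 1.08. Neither edge gene was lower in the resistant line. With the window opened at base 52000000, the median of the remaining genes was -0.25, against -0.24 for all 101.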

How the data were processed

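RNA of 3 resistant and 3 control libraries was measured after exome-probe capture. The authors deposited whole-number read counts per gene, without normalisation, per the file headers and values. Trimmomatic 0.38, STAR 2.7.8a and featureCounts with build GRCh38 appear in the submitters' processing notes. How strand and multiply matched reads were treated is not given in the sources used here. RefSeq (GRCh38.p14) gave names and positions for 27745 of 28395 gene IDs, and exons and proteins came from GENCODE 29. Of 112 RefSeq genes that meet the rule for members, 109 are in the table.

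Genes were filtered with filterByExpr by group, scaled by TMM and tested with edgeR 4.0.16 in R 4.3.3 (quasi-likelihood test, batch and group as terms, 3 residual degrees of freedom). The test was checked on simulated counts. DESeq2 1.42.0 and limma 3.58.1 (voom) were alternatives, with other scalings, filters, terms and left-out libraries. The values within a batch are differences of log2 CPM with a prior count of 2. Pairs of libraries in a group differed beyond counting error (chi-square divided by its degrees of freedom, 75.3 to 221), and each counted as 1 sample.

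Members and lists were chosen with earlier results of these data known. Named members are those with a known role, the 12 largest falls and up to 6 largest rises with one sign in both batches and a mean level of 1 CPM or more, the 5 most abundant, members absent from 1 line (none was found), and the 3 largest batch changes in each direction; the remaining genes among the 15 called, and ZNF787, ZSCAN5A, ZNF114, ZNF728, ZNF99, ZNF492 and ZNF98, were added after their values were seen. Neighbours are the 4 most abundant and the largest call in each direction. One gene that this rule takes, and one marker, are not reported here. A list is described by counts and its median, and no test was made over a list.

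Libraries with the same replicate number deviated together from their group means, with correlations across genes of 0.729, 0.143 and 0.155, all over 0.1. Pairing by number was therefore tried, but only in the alternative fit called the replicate block. The main test had batch and group as terms and did not pair replicates 2 and 3. Pair 1 is the 2020 batch. For the 2021 libraries the correlation was higher across unlike numbers (0.570 for resistant 3 with control 2 and 0.477 for resistant 2 with control 3), so the pairing of replicates 2 and 3 is uncertain.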

Additional observations from a re-analysis of the deposited data

How the results depend on the processing

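The median difference of the 101 genes stayed between -0.28 and -0.18, and that of the telomeric block between -0.39 and -0.29, under all 15 alternatives. The count of members called depends more on the setting. It was 15, and it was 23 with DESeq2, 6 in the 2021 batch alone and 2 to 24 with a library left out, with 1 of those calls higher without control replicate 3. Without a batch term it was 0 in edgeR, with 19 lower and 0 higher at an unadjusted p under 0.05. With the replicate block it was 12, and 1303 over all genes. Calls over all genes were 362 without a batch term, 1012 in 2021 alone and 617 to 1985 with a library left out. DESeq2 called 1120 genes higher and 1084 lower over all genes, against 869 and 764 in the main fit. Corepressor calls were 1 without a batch term. Batch calls among members were 1 to 39 with a library left out. The centromeric median was -0.19 to 0.064 with a library left out. Upper quartile scaling called 951 genes higher and 636 lower, and 10 members lower.

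ZFP28 and ZNF772 were called under 14 of 15 alternatives, losing the call without a batch term. ZNF71 and ZNF835 were called under 12, ZNF524 under 10, ZNF548, ZNF582, ZSCAN4 and ZNF416 under 9, ZNF274 under 8, ZNF836, ZNF549, ZNF530 and ZNF552 under 5 and ZNF583 under 4. All 15 stayed below 0 under every alternative. The genes were picked on this contrast, so these counts describe the settings and do not rank the genes by reliability. Signs turned for genes near 0. ZNF460 reached 0.026 with upper quartile scaling, 0.011 with a minimum of 1 CPM and 0.057 in 2021 alone. ZNF320 was -0.00382 without a filter and ZNF808 -0.00343 without a batch term. With a library left out, ranges were -0.18 to 0.089 for ZNF460, -0.15 to 0.17 for ZNF320, -0.12 to 0.11 for ZNF808, -0.13 to 0.18 for ZNF525, -0.11 to 0.50 for ZNF577, -0.00806 to 0.15 for ZNF444, -0.086 to 0.28 for ZNF83, -0.20 to 0.029 for ZNF587 and -0.18 to 0.092 for ZNF28. The cause of these changes was not tested. Over all named members and alternatives, 372 values kept their direction and side of the threshold, 45 lost the call, 13 gained one and 20 turned sign. Differences under about the spread of 3 libraries could not be resolved, and the 8 genes left out of the test had too few counts to compare. Why their counts were low was not tested.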
